A study of Mus musculus with 7 samples.

Results

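The 9 genes described here are those through which glial cells clear transmitter and keep the fluid around neurons steady, followed in single nuclei of the mouse striatum. They were taken by symbol from a per-mouse table of 27998 genes, and all 9 were found: Slc1a2, Slc1a3, Glul, Gja1, Gjb6, Aqp4, Slc7a10, Slc6a11 and Ntsr2. The study asked how a Huntington's disease mutation alters the identity of striatal cells. The 7 donors were male C57BL6/J mice. Wild type (WT) huntingtin was present in 3. In the other 4 the knock-in HttQ175, a huntingtin allele with a lengthened CAG repeat, replaced 1 of the 2 copies of the gene (HttQ175/+). The 7 mice were 14 months old, except replicate 1 of HttQ175/+ at 15 months. The mutant allele is present in every cell from conception, so no cell type was targeted. Each mouse gave 1 library of 3' transcript tags counted as unique molecular identifiers (UMIs), so a replicate is a mouse, and its number is only a name. The authors' annotation placed 4524 nuclei in 12 cell types, and 300 were astrocytes, 468 oligodendrocytes and 78 polydendrocytes, the progenitors of oligodendrocytes.

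Glutamate released at synapses is taken up mainly by astrocytes, through the transporters encoded by Slc1a2 (GLT-1) and Slc1a3 (GLAST), and glutamine synthetase, encoded by Glul, turns it into glutamine that neurons can use again. Astrocytes are joined by gap junctions built from connexin 43 (Gja1) and connexin 30 (Gjb6), and water crosses their end feet through aquaporin-4 (Aqp4). Slc7a10 encodes a transporter of small neutral amino acids including D-serine, Slc6a11 the GABA transporter GAT-3, and Ntsr2 a neurotensin receptor. Glul is also made by oligodendrocytes, and Slc1a3 by progenitors, so the 9 genes are not all restricted to astrocytes.

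The promoter shown is that of Glul, the only member that passed the test in any cell type. Its 250 bases before the RefSeq transcription start (GRCm38.p6, plus strand, chr1:153899679-153899928) read 5' to 3' as follows, with matches to CCAAT in capitals.
Glul: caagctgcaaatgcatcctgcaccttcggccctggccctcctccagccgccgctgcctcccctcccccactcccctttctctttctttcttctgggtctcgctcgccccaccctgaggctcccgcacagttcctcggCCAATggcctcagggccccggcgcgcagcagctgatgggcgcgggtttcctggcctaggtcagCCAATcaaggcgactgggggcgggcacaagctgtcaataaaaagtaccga
The window holds CCAAT at 2 places, from -113 to -109 and from -50 to -46 relative to the start, and no TATAAA on either strand. Both motifs were searched on both strands and do not overlap, and CCAAT stands in 33.85% and TATAAA in 12.37% of 32851 mouse promoter windows of this length. The window holds 15 CG pairs, against a median of 6 over those windows. These matches describe the letters of the window and were searched after the levels were known. Promoters of 8 of the 9 members matched in the RefSeq table.

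Pooled over the 7 mice of both genotypes, each of the 9 genes had its highest level in astrocytes. Within each genotype this held for the 8 genes other than Glul, and for Glul in HttQ175/+ but not in WT mice. Levels across types are given as pooled CPM (the UMIs of a gene over all UMIs of the type, on the counts-per-million scale), with 95% exact Poisson intervals that cover counting error only. Slc1a2 stood at 6084 (5892 to 6281) in astrocytes, Slc1a3 at 1184 (1100 to 1272), Ntsr2 at 1074 (994.4 to 1159) and Glul at 558.1 (500.9 to 620.0). Gja1, Aqp4, Slc7a10, Slc6a11 and Gjb6 stood at 442.3, 398.9, 361.9, 260.5 and 128.7. The astrocyte label held against 12 astrocyte markers outside the 9 genes, among them Aldh1l1, Aldoc, Fgfr3 and Sox9. They summed to 11322 pooled CPM in astrocytes, the highest of the 12 types. Endothelial cells came next at 3736 and polydendrocytes at 3027, and dSPNs stood at 546.5. All 12 markers were read in astrocytes, but also in dSPNs. The dSPNs and iSPNs are the spiny projection neurons of the direct and indirect pathways, the output neurons of the striatum.

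Glul was also read at high levels in 2 other cell types. Its level in endothelial cells (438.2, 355.3 to 534.5) reached 78.5% of the astrocyte level, and its level in oligodendrocytes (337.5, 304.4 to 373.2) reached 60.5%. Its order over these types differed by genotype. In WT mice pooled Glul stood at 797.8 (698.4 to 907.3) in oligodendrocytes, 779.6 (568.6 to 1043) in endothelial cells and 604.5 (499.5 to 725.1) in astrocytes, so that both other types lay above astrocytes, at 132% and 129% of their level. In HttQ175/+ mice it stood at 177.2 (149.8 to 208.2), 317.7 (237.3 to 416.7) and 537.3 (470.3 to 611.3), or 33.0% and 59.1% of the astrocyte level. Over both genotypes together, no member outside Glul exceeded 8.55% of its astrocyte level in oligodendrocytes, a value reached by Slc1a3 at 101.2 pooled CPM. Within each genotype Slc1a3 stood there at 4.22% of its astrocyte level in WT and 11.1% in HttQ175/+ mice. Over both genotypes Slc1a2 came second in endothelial cells at 1676 (1510 to 1855), or 27.5% of the astrocyte level. The astrocyte markers summed to 3736 pooled CPM in endothelial nuclei, and the part of astrocyte RNA in these nuclei was not tested. Polydendrocytes held Slc1a2 at 512.7, Slc1a3 at 166.8 and Ntsr2 at 98.8 pooled CPM, and no Gjb6 UMI among 161883, which allows up to 18.5 pooled CPM (the level worth 3 UMIs, taken as the limit for a count of 0).

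**Figure D1:**
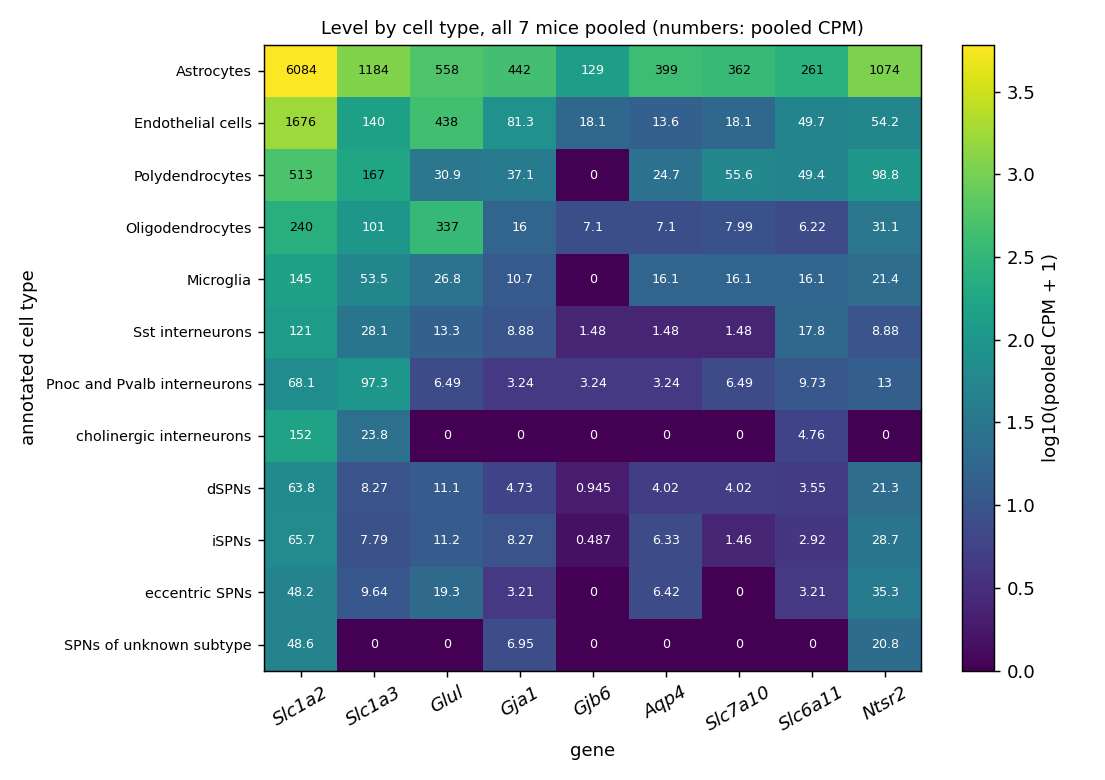
Level of the 9 genes (columns) in the 12 annotated cell types (rows), as pooled CPM over 7 mice of both genotypes; colour is log10 of that value plus 1. Pooled this way each column is highest in astrocytes, though in WT mice alone Glul was higher in oligodendrocytes (797.8 against 604.5), and Glul is the only gene above 300 pooled CPM in oligodendrocytes.

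On the mm10 build the GENCODE annotation places Slc1a2 on chromosome 2 from 102658659 to 102790784, Slc1a3 on chromosome 15 from 8634124 to 8710764, and Glul on chromosome 1 from 153899944 to 153909723. Gja1 lies on chromosome 10 from 56377330 to 56402513, Gjb6 on chromosome 14 from 57123303 to 57133611, and Aqp4 on chromosome 18 from 15389496 to 15410982. Slc7a10 lies on chromosome 7 from 35186385 to 35201114, Slc6a11 on chromosome 6 from 114131241 to 114249952, and Ntsr2 on chromosome 12 from 16653382 to 16660227. All are protein-coding, and Slc1a3, Gjb6 and Aqp4 lie on the minus strand.

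dSPNs and iSPNs held the 9 genes at 0.378% to 2.67% of the astrocyte level. In dSPNs Slc1a2 stood at 63.8 pooled CPM, Ntsr2 at 21.3 and Glul at 11.1, and Gjb6 rested on 4 UMIs in 1809 nuclei. Slc1a2 was read in 5.42% of dSPN nuclei and 96.0% of astrocyte nuclei, at a median of 2175 and 1664 UMIs per nucleus. Free RNA can add UMIs of abundant genes to any nucleus, and its part in these levels was not tested. These levels in dSPNs and iSPNs are not read as expression. Slc1a3 was higher in Pnoc and Pvalb interneurons, at 97.3 pooled CPM or 8.22% of the astrocyte level, against 8.27 pooled CPM in dSPNs. In those interneurons it was read in 19.2% of nuclei. Cholinergic interneurons held no UMI of 6 of the 9 genes among 209915 UMIs, which by the same limit of 3 UMIs allows up to 14.3 pooled CPM.

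Genotype was compared on CPM averaged over the nuclei of each mouse (mean CPM, called CPM from here on). A difference is a log2 change, mutant over WT, with its SE by limma; p-values were adjusted by the method of Benjamini and Hochberg over all genes tested in the type, at a threshold of 0.05. Astrocytes gave 26 to 71 nuclei and 40870 to 153668 UMIs per mouse, and oligodendrocytes 32 to 109 nuclei and 77673 to 260976 UMIs. Tests were made where 3 mice of each genotype had 10 or more nuclei of a type, which left astrocytes, oligodendrocytes, dSPNs, iSPNs and Sst interneurons. Of the 9 genes, 9, 3, 2, 1 and 0 passed the filter on low values in these types. Libraries shared 3 barcodes. No label says that mice of a group came from separate litters, so the p-values measure the spread between these mice.

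Oligodendrocytes showed the single change that passed the test: Glul, which encodes glutamine synthetase, fell about 5.02-fold in HttQ175/+ mice. Its level was 1255, 1035 and 911 CPM in WT replicates 1 to 3, but only 221, 149, 303 and 195 CPM in mutant replicates 1 to 4. Every mutant mouse lay below every WT mouse, and groups did not overlap in 11.3% of genes tested in this type, in either direction. The log2 change was -2.33 ± 0.28 (limma, adjusted p = 0.000167; 95% interval -2.92 to -1.74). Of 3641 genes tested in oligodendrocytes, 20 or 0.549% were called lower and 2 or 0.0549% higher, and Glul had the smallest p of all. The levels rest on 232 Glul UMIs in WT and 148 in HttQ175/+ oligodendrocytes. The count of genes called was 133 without HttQ175/+ replicate 3, and 8, 2 and 1 without WT replicates 1, 2 and 3. It was 11 without HttQ175/+ replicate 2 and 7 without replicate 4. Glul was among the genes called in each of these fits.

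The share of oligodendrocyte nuclei with a Glul UMI rests on the same UMIs as the level above. In this type it was computed for Glul alone, the gene with the smallest p, so it is not separate support. With every nucleus thinned to 1100 UMIs it was 51.4%, 34.4% and 42.6% in WT replicates 1 to 3. It was 13.7%, 12.04%, 17.5% and 11.9% in HttQ175/+ replicates 1 to 4. The groups did not overlap (exact two-sided permutation test over 35 splits, unadjusted p = 0.0286, the smallest this design allows). How many genes separate in this measure was not computed. Without thinning the shares averaged 47.3% ± 8.7 (SD, n = 3) in WT and 18.2% ± 4.4 (SD, n = 4) in HttQ175/+ mice. In dSPN nuclei, whose median depth was 2175 UMIs against 2158.5 in oligodendrocytes, the thinned share was 0.975% in WT and 1.39% in HttQ175/+ mice. These dSPN shares were taken over all nuclei of a genotype pooled, not per mouse. Median UMIs of oligodendrocyte nuclei averaged 2097 ± 316 (SD, n = 3) in WT and 2137 ± 421 (SD, n = 4) in HttQ175/+ mice (exact permutation test, p = 0.943).

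**Figure D2:**
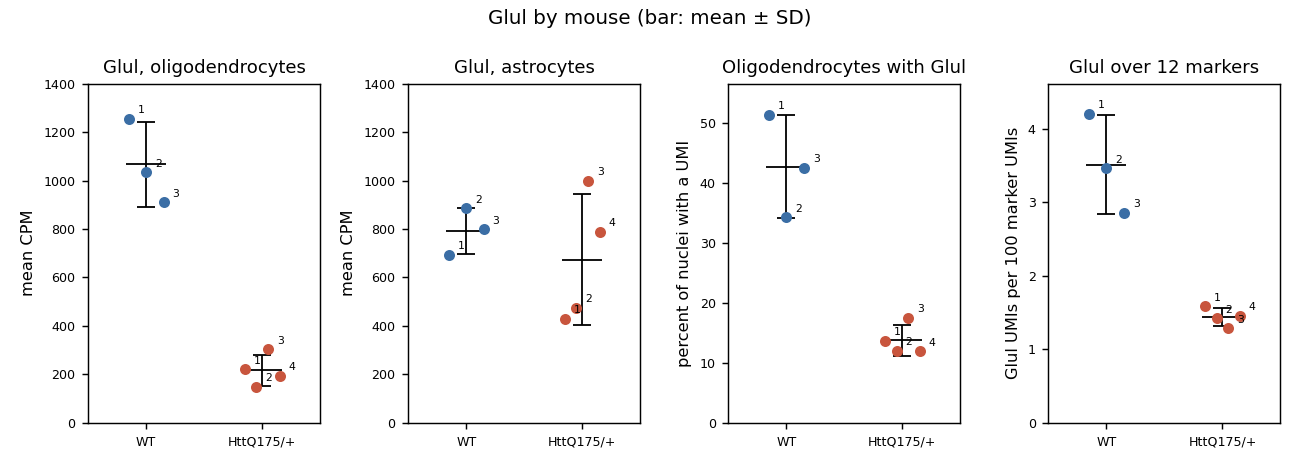
Glul in each mouse, numbered by replicate, as mean CPM in oligodendrocytes and in astrocytes, as the percent of oligodendrocyte nuclei with a Glul UMI at 1100 UMIs per nucleus, and as UMIs per 100 UMIs of 12 oligodendrocyte markers; bars are mean ± SD. The 4 HttQ175/+ mice lie below the 3 WT mice in each oligodendrocyte panel, while the groups overlap in astrocytes. The oligodendrocyte panels rest on the same Glul UMIs.

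Several other measures moved with Glul in these nuclei. The 12 oligodendrocyte markers summed to 27556 to 31787 CPM in WT against 11119 to 23594 CPM in HttQ175/+ mice. Myelin genes among them, including Mobp, Mal and Cldn11, fell past the threshold with all 7 mice, and the median change of the 12 was -0.96. These calls were lost without some single mice: with each mouse left out in turn Mobp was called in 1, Cldn11 in 2 and Mal in 5 of 7 fits (limma, adjusted p up to 0.209, 0.135 and 0.121, each without WT replicate 3). Relative to those markers Glul was still lower, at 4.21, 3.47 and 2.86 Glul UMIs per 100 marker UMIs in the WT mice in order and 1.59, 1.42, 1.29 and 1.46 in the HttQ175/+ mice. The groups did not overlap in this ratio (exact permutation test, unadjusted p = 0.0286, the smallest possible). It was computed for Glul alone and reuses the same Glul UMIs, so it is not separate support. How many genes separate in such a ratio was not computed. Spiny neuron markers, 14 genes read in oligodendrocyte nuclei, summed to 3897 to 4926 CPM in WT against 2095 to 3689 CPM in HttQ175/+ mice. None of the 14 was at 0, and their part in the result was not tested. The 9 markers of neural progenitors and neuroblasts summed to 21.0 to 77.1 CPM in WT against 117 to 163 CPM in HttQ175/+ oligodendrocyte nuclei, without overlap. Only Top2a among them was at 0, and their part was not tested either.

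The 12 astrocyte markers in oligodendrocyte nuclei summed to 1921 to 2125 CPM in WT against 952 to 1209 CPM in HttQ175/+ mice. Of the 4 that could be tested, only Apoe, the main lipid carrier of the brain, fell past the threshold with all 7 mice in the fit. This call was lost without any 1 of the WT mice. From WT to HttQ175/+ the mean of Apoe alone went from 1597 to 630 CPM. The median log2 change of the 4 was 0.026, so the lower sum does not show a fall of these markers as a class. None of the 12 was at 0. In oligodendrocyte nuclei with no UMI of the 8 other members, Glul stood at 1293, 952 and 966 CPM in WT against 186, 112, 180 and 205 CPM in HttQ175/+ mice. The change there was -2.58 ± 0.30 (limma, adjusted p = 4.89e-05), as large as in all nuclei. This fit was added after the data had been seen and uses a part of the same nuclei. WT oligodendrocytes held 283 Glul UMIs per 100 Slc1a2 UMIs and HttQ175/+ oligodendrocytes 78.7, against 8.35 and 9.65 in astrocytes.

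Neither glutamate transporter passed the test in oligodendrocytes. Slc1a2 stood at 197, 389 and 155 CPM in WT against 296, 259, 121 and 300.2 CPM in HttQ175/+ mice, overlapping (-0.07 ± 0.34, limma, adjusted p = 0.974). Slc1a3 stood at 39.3, 97.4 and 92.1 CPM in WT against 34.5, 134, 257 and 147 CPM in HttQ175/+ mice (0.56 ± 0.44, adjusted p = 0.648). Its highest and lowest values of the 7 mice both belonged to HttQ175/+ mice. Each of the other 6 members had 7 to 35 UMIs in all 468 oligodendrocyte nuclei and was not tested.

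In astrocytes none of the 9 genes passed the test, and none of 1858 genes did, a background of 0%. At an unadjusted p under 0.05 limma gave 257 genes and 3 members, and limma-voom on summed UMIs called 7 genes and no member. All 9 fitted changes were below 0, as were 46.3% of all genes, though those of Gjb6 and Slc6a11 turned above 0 without some single mice, and that of Slc6a11 also at 1100 UMIs per nucleus. The median was -0.45 for the members and 0.05 for all genes. Without HttQ175/+ replicate 3, 8 genes and no member were called, and without WT replicate 3 and WT replicate 2 there were 3 genes and 1 gene.

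The uptake transporters lay lower in most mutant mice. Slc1a2 stood at 8123, 9653 and 8840 CPM in WT replicates 1 to 3 against 6284, 5356, 8903 and 6370 CPM in HttQ175/+ replicates 1 to 4. Replicates 1, 2 and 4 of HttQ175/+ lay below every WT mouse, and replicate 3 lay within the WT range. In replicate 3, 122 of 446 Slc1a2 UMIs came from 1 of 28 nuclei, against at most 56 in 1 nucleus of any other mouse. The level without that nucleus was not computed. The change of Slc1a2 was -0.45 ± 0.20 (limma, adjusted p = 0.336, 95% interval -0.87 to -0.03). Slc1a3 stood at 1512, 1963 and 1932 CPM in WT against 1166, 1120, 1521 and 1108 CPM in HttQ175/+ mice. Its groups met only where HttQ175/+ replicate 3 reached WT replicate 1 (-0.58 ± 0.24, adjusted p = 0.290; 95% interval -1.07 to -0.08).

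Glul, whose level fell in oligodendrocytes, was spread over a wide range in mutant astrocytes. It stood at 695, 886 and 798 CPM in WT against 430, 475, 999 and 789 CPM in HttQ175/+ mice. In HttQ175/+ replicate 3, the highest, 12 of 49 Glul UMIs came from 1 nucleus. In all 3 WT mice the Glul level was higher in oligodendrocytes than in astrocytes, and in all 4 HttQ175/+ mice it was lower. In astrocytes the mutant mice included both the lowest and the highest of the 7 levels (-0.33 ± 0.30, limma, adjusted p = 0.643; 95% interval -0.95 to 0.28). The difference between its changes, oligodendrocytes minus astrocytes, was -1.99 ± 0.37 (limma with both types of each mouse, adjusted p = 0.0127), and 14 of 1572 genes or 0.891% were called in that comparison. The same difference was 0.38 ± 0.41 for Slc1a2 and 1.13 ± 0.47 for Slc1a3 (adjusted p = 0.749 and 0.371). This comparison was added after the levels had been seen. When every gene with at least 1 UMI was tested, its adjusted p for Glul was 0.0580.

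The gap junction and water channel genes shared a high value in HttQ175/+ replicate 3. Gja1 stood at 629, 722 and 576 CPM in WT against 278, 366, 882 and 514 CPM in HttQ175/+ mice (-0.47 ± 0.32, limma, adjusted p = 0.541). HttQ175/+ replicates 1, 2 and 4 lay below every WT mouse and replicate 3 above every one. Without replicate 3 the change of Gja1 was -0.75 (adjusted p = 0.217). Gjb6 stood at 156, 122 and 194 CPM in WT against 138, 123, 221 and 135 CPM in HttQ175/+ mice (-0.06 ± 0.34, adjusted p = 0.953). Aqp4 stood at 573, 650.2 and 405 CPM in WT against 356, 417, 605 and 430 CPM in HttQ175/+ mice, again with overlap (-0.28 ± 0.29, adjusted p = 0.693).

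The remaining transporters differed from that pattern. Slc7a10 stood at 506, 648 and 404 CPM in WT against 479, 373, 184 and 502 CPM in HttQ175/+ mice, with its lowest level in replicate 3 (-0.50 ± 0.34, limma, adjusted p = 0.530). Without replicate 3 its change was -0.19 (adjusted p = 0.767). Slc6a11 stood at 292, 439.9 and 267 CPM in WT against 277, 246, 357 and 435 CPM in HttQ175/+ mice, with the groups fully interleaved (-0.04 ± 0.31, adjusted p = 0.964).

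Ntsr2 was the only member whose groups did not overlap in astrocytes. The neurotensin receptor gene stood at 1606, 1749.9 and 1765 CPM in WT against 1242, 1004, 1295 and 747 CPM in HttQ175/+ mice. Every mutant mouse lay below every WT mouse, as in 11.9% of genes tested (in either direction). The change of -0.72 ± 0.25 did not pass (limma, adjusted p = 0.232; 95% interval -1.24 to -0.19).

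**Figure D3:**
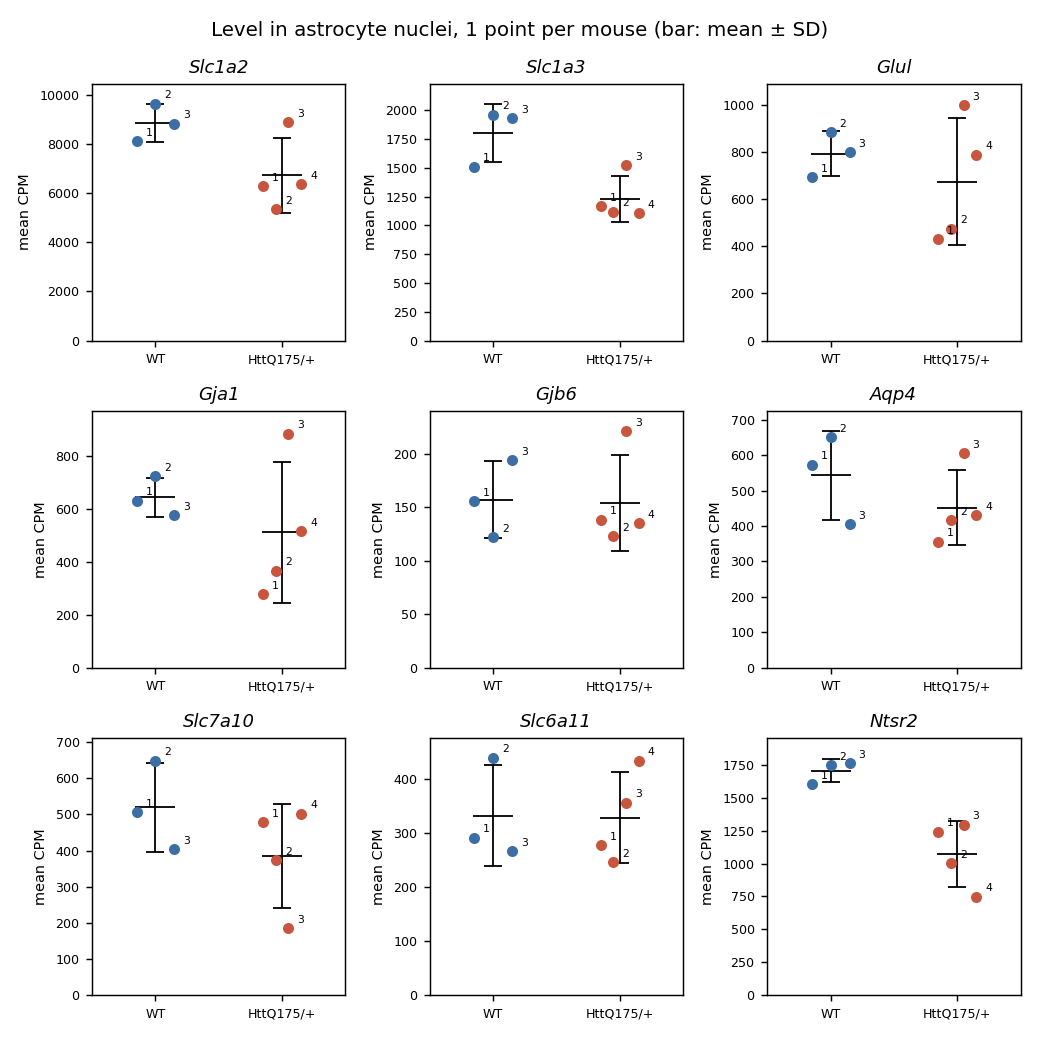
Mean CPM of the 9 genes in astrocyte nuclei, 1 point per mouse numbered by replicate, with mean ± SD for 3 WT and 4 HttQ175/+ mice; each vertical axis starts at 0. Only the Ntsr2 groups do not overlap, and HttQ175/+ replicate 3 is the highest mouse for Glul, Gja1 and Gjb6 and the lowest for Slc7a10.

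Detection per nucleus was compared at 1100 UMIs per astrocyte nucleus. Slc1a3 was read in 83.7% ± 6.7 (SD, n = 3) of WT nuclei and 65.1% ± 4.9 (SD, n = 4) of HttQ175/+ nuclei, without overlap (exact permutation test, p = 0.0286, adjusted over the 9 genes 0.257). Ntsr2 was read in 83.0% ± 2.0 (SD, n = 3) and 63.3% ± 12 (SD, n = 4), also without overlap (exact permutation test, p = 0.0571, adjusted 0.257). Neither passed, and neither did the other 7 genes. Over 35 splits the smallest possible p is 0.0286, which adjusts to 0.257 over 9 genes when only 1 gene reaches it. A single separated gene could therefore not pass this test. At 1500 UMIs 177 of 300 nuclei were left. Median depth lay below 1500 in every WT mouse and in HttQ175/+ replicate 3, so most of their nuclei were left out. WT replicate 2 had only 26 astrocyte nuclei before this cut. At that depth the Ntsr2 shares were 76.6% in WT and 73.6% in HttQ175/+ mice and overlapped. Those of Slc1a3 were 87.9% and 67.6%, also overlapping (exact permutation test, p = 0.0857). Without thinning the Ntsr2 shares were 88.6% and 82.7%, and those of Slc1a3 were 92.4% and 81.9%, both overlapping.

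Depth and markers of other cell types were compared in the same nuclei. Median UMIs per astrocyte nucleus were 1463, 1339 and 1472.5 in WT and 1742, 2032, 1410.5 and 2383 in HttQ175/+ mice (exact permutation test, p = 0.171), with replicate 3 the shallowest mutant mouse. The 11 microglial markers summed to 29.2 to 93.1 CPM in WT against 239.7 to 537.7 CPM in HttQ175/+ astrocytes, and none was at 0. The 11 interneuron markers summed to 0 to 30.1 and 31.4 to 136 CPM, with Chat, Kit and Nxph1 at 0. The part of either in the lower member levels was not tested. Oligodendrocyte markers summed to 647 to 1192 CPM in WT against 1117 to 2250.0 CPM in HttQ175/+ astrocytes and overlapped. Astrocytes made up 11.005%, 7.69% and 5.38% of nuclei in WT and 6.93%, 5.73%, 6.25% and 5.99% in HttQ175/+ mice (exact permutation test, p = 0.257).

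Neurons gave no call among the members that could be tested. In dSPNs, where 346 of 8790 genes or 3.94% were called (1.4% higher and 2.54% lower), Slc1a2 stood at 109, 37.1 and 69.4 CPM in WT against 80.5, 64.1, 78.6 and 20.2 CPM in HttQ175/+ mice (-0.38 ± 0.41, limma, adjusted p = 0.691). Ntsr2 stood at 10.2, 41.4 and 25.9 CPM in WT against 15.6, 26.7, 24.5 and 21.8 CPM in HttQ175/+ mice (-0.16 ± 0.36, adjusted p = 0.867). In iSPNs, where 131 of 5894 genes or 2.22% were called (0.526% higher and 1.7% lower), Slc1a2 stood at 19.6 to 106 CPM in WT against 24.8 to 80.7 CPM in HttQ175/+ mice (-0.01 ± 0.43, adjusted p = 0.996). All of these groups overlapped, and the levels were as low as those pooled over all mice. The changes in astrocytes minus dSPNs were -0.06 ± 0.46 for Slc1a2 and -0.56 ± 0.44 for Ntsr2 (adjusted p = 0.963 and 0.553), in a comparison that called 1 of 1692 genes or 0.0591%.

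Sst interneurons, a class of inhibitory neuron, had no member past the filter and 0% of 2233 genes called (166 at an unadjusted p under 0.05; 0 by limma-voom). Slc1a2 there stood at 38.2, 53.8 and 23.7 CPM in WT against 56.5, 354, 82.9 and 73.3 CPM in HttQ175/+ mice. The groups did not overlap, as in 7.88% of the genes tested there. The high value of HttQ175/+ replicate 2 came from 52 UMIs in 8 of 67 nuclei, with 17 in 1 nucleus.

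Polydendrocytes and endothelial cells had too few nuclei per mouse for a test. In polydendrocytes, with 8 to 17 nuclei per mouse, Slc1a3 stood at 312, 273 and 433 CPM in WT against 337, 169, 97.7 and 23.3 CPM in HttQ175/+ mice. WT replicate 3 was the highest and HttQ175/+ replicate 4 the lowest, but 1 mutant mouse lay within the WT range. In endothelial cells Glul stood at 986, 565 and 422 CPM in WT against 439, 262, 244 and 1052 CPM in HttQ175/+ mice. The highest of these levels came from 6 nuclei of HttQ175/+ replicate 4. The groups overlapped, and HttQ175/+ replicate 1 also lay above WT replicate 3.

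**Figure D4:**
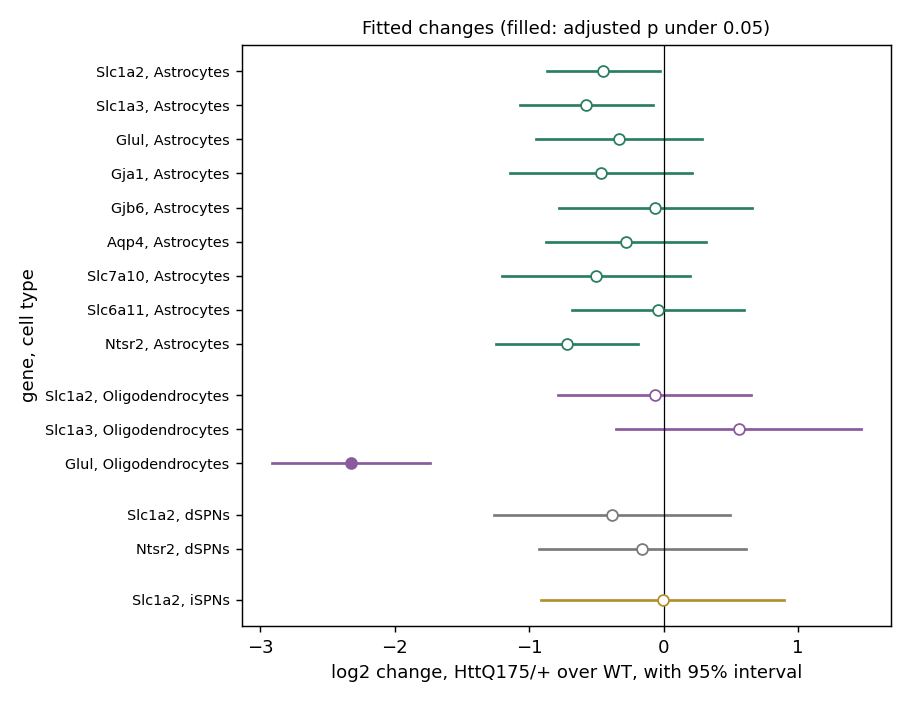
Fitted log2 change of HttQ175/+ over WT for each member that passed the filter on low values, with its 95% interval, by cell type; filled points have an adjusted p under 0.05. Glul in oligodendrocytes, at -2.33, is the only filled point.

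Genes of neighbouring pathways were counted in the same fits. In astrocytes 0 of 7 tested genes of the glutamate and GABA cycle list passed, and 4 were below 0 (median -0.41). Slc7a11, the cystine and glutamate exchanger, stood at 638 CPM in WT against 330 CPM in HttQ175/+ mice without overlap (-0.996 ± 0.31, limma, adjusted p = 0.181). Abat, which breaks down GABA, stood at 44.6 and 131 CPM (1.35 ± 0.62, adjusted p = 0.336). Of 12 potassium, water and ion handling genes 0 passed and 11 were below 0 (median -0.45). Among these Hepacam, a cell adhesion molecule, stood at 413 and 220.1 CPM (-0.89 ± 0.34, adjusted p = 0.275). The gap junction list had 1 tested gene, Tjp1, at 126 and 130.04 CPM.

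The broader astrocyte lists gave no call either. Of 40 tested astrocyte identity genes 34 were below 0, 16 had an unadjusted p under 0.05 against 13.8% of all genes, and the median was -0.52. Aldoc, an aldolase of glycolysis that is also in the glycogen and lactate list, stood at 760.4 CPM in WT against 413 CPM in HttQ175/+ mice without overlap (-0.87 ± 0.27, limma, adjusted p = 0.181). Gfap, the intermediate filament gene used as a mark of reactive astrocytes, lay in the other direction. It stood at 33.7 to 89.4 CPM in WT against 126 to 263 CPM in HttQ175/+ mice (1.32 ± 0.40, adjusted p = 0.181).

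Only 2 of 42 reactive astrocyte genes could be tested, Gfap and the complement gene C4b, which stood at 328 and 498 CPM (0.48 ± 0.34, adjusted p = 0.543). Of 11 receptor and calcium genes 7 were below 0, and Grin2c, an NMDA receptor subunit, stood at 1410.0 and 851 CPM without overlap, while Crym, which binds thyroid hormone, stood at 922 and 533 CPM. Of 7 lipid and cholesterol genes 5 were below 0, with the desaturase Scd2 at 669 and 1024 CPM and the transcription factor Srebf1 at 401 and 258 CPM. Of 8 glycogen and lactate genes 5 were below 0, and Phkg1, a phosphorylase kinase subunit, stood at 834 and 452 CPM.

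In oligodendrocytes, where 0.604% of genes were called, 2 genes of these lists passed with all 7 mice. Apoe fell from 1597 ± 136 CPM (SD, n = 3) to 630.4 ± 153 CPM (SD, n = 4), a change of -1.43 ± 0.26 (limma, adjusted p = 0.0116), and is 1 of 17 tested identity genes. Scd2 fell from 3180.5 ± 268 (SD, n = 3) to 1430 ± 348 CPM (SD, n = 4), a change of -1.25 ± 0.24 (adjusted p = 0.0155), and is 1 of 8 tested lipid genes. With each mouse left out in turn Apoe was called in 3 and Scd2 in 2 of 7 fits, with log2 changes of -1.53 to -1.24 and -1.42 to -1.15. Neither was called without any 1 of the 3 WT mice (limma, adjusted p from 0.0597 to 0.0961 for Apoe and from 0.0617 to 0.135 for Scd2) or without HttQ175/+ replicate 4 (0.0572 and 0.0632). Scd2 was not called without HttQ175/+ replicate 2 either (0.0506), and without WT replicate 3 Glul was the only gene called. None passed of 12 glutamate and GABA cycle genes, 9 potassium, water and ion genes, 4 gap junction genes, 9 receptor and calcium genes, and 1 gene each of the reactive and the glycogen lists. Gjb1, the oligodendrocyte connexin 32, stood at 177 and 91.6 CPM without overlap (-0.94 ± 0.30, limma, adjusted p = 0.166).

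The genes outside the set whose levels over the 12 cell types ran most like those of the members were Adhfe1, Fgfr3, Slc9a3r1, Scara3 and Slc39a12. Their mean Pearson r with the 9 members was 0.928, 0.928, 0.926, 0.923 and 0.921 among 8833 genes ranked, over 12 types that share the same 7 libraries. Among the members themselves Glul had the lowest mean r with the other 8, 0.706, and the others ran from 0.850 to 0.914. In astrocytes Fgfr3, a growth factor receptor that is also among the astrocyte markers, had a fitted change of -0.79 ± 0.28 that did not pass (limma, adjusted p = 0.225). Slc9a3r1 (-0.73 ± 0.43), Scara3 (-0.52 ± 0.37) and Slc39a12 (-0.54 ± 0.39) did not pass either (limma, adjusted p from 0.462 to 0.559).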

How the data were processed

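Nuclei of frozen striatum were made into Chromium 3' libraries, per the labels' protocols, which Cell Ranger 3.0.2 and Seurat turned into values on mm10, per the submitters' processing notes. How nuclei were filtered, types called and strand used is not given in those sources. The authors deposited values as the natural log of 1 plus UMIs per 10000, and a table of other columns with each nucleus's type, library and genotype. The smallest step of each nucleus gave back whole UMIs (100% of 5824756 values within 0.02). Nuclei held 1128 to 5632 UMIs.

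The members and lists were chosen with earlier results of these data known. Mean CPM per mouse and type were scaled by TMM (trimmed mean of M values). The log2 was taken after adding 2 UMIs' worth of CPM in the median mouse (22.7 CPM in astrocytes, 15.1 in oligodendrocytes), a pseudocount that shrinks changes of low genes. A gene needed 15 UMIs in the type and the CPM worth 10 UMIs in 3 mice. The deposited unit is a log, so limma-trend (limma 3.58.1, R 4.3.3) was the main test, with limma-voom on the recovered UMIs as an alternative. Limma-trend was run on simulated counts in which the spread between mice was set. It called 43.6% of changes of 1 log2 unit in astrocytes and 59.3% in oligodendrocytes. For changes of 2 log2 units it called 87.3% and 92.3%. CPM are printed before TMM scaling. Other values were compared by exact permutation with scipy 1.17.1. All 9 members were named in every type; from each list up to 4 passing genes, or else the 2 with the smallest p, and the 5 genes most like the members by mean Pearson r over types. Some genes that this names are left unreported. Scrublet in scanpy 1.11.5 marked 60 nuclei (1.33%) as doublets, which were kept; whether any were removed earlier is not given there. Alternatives changed the scaling, pseudocount, filter, weighting of nuclei, variance model, doublets, depth and each mouse. Levels within each genotype, and the calls of 5 other oligodendrocyte genes without each mouse, were added after the data had been seen. So was the fit of Glul in oligodendrocyte nuclei with no UMI of the other members. A deposited table of smoothed values was not used.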

Additional observations from a re-analysis of the deposited data

Results flagged for a closer look

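The change of Glul differed between 2 cell types of the same mice: the log2 change in oligodendrocytes minus that in astrocytes was -1.99 by limma's test of the difference (adjusted p = 0.0127). In astrocytes 2 values of HttQ175/+ replicate 3 stood far from those of the other 3 mutant mice by Dixon's criterion at the 95% level. These were Slc1a3 at 1521 CPM and Gjb6 at 221 CPM, each the highest of the 4. Of 18 groups of 4 mice examined 2 were marked, and chance marks about 1 in 20.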

How the results depend on the processing

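No paired analysis was possible because no label pairs a WT mouse with a mutant one. Glul in oligodendrocytes passed in all 17 alternatives, from -2.58 to -2.10, with adjusted p from 1.47e-05 to 0.0162, and no other member passed in any. The value of -2.58 came from nuclei with no UMI of the other members, a fit added after the data had been seen. The difference of the Glul change from astrocytes stayed at -1.99 with every gene of at least 1 UMI tested, but its adjusted p rose to 0.0580 over 13943 genes. Of 265 refits of single members 239 kept direction and side of the threshold, and 26 turned in sign without passing. The sign turned without TMM for Slc1a2 in oligodendrocytes (0.010) and iSPNs (0.076), and at 1100 UMIs for Slc1a2 in oligodendrocytes (0.037), Slc6a11 in astrocytes (0.083) and the astrocyte minus dSPN difference of Slc1a2 (0.24). Slc1a2 in iSPNs also turned with a pseudocount of 1 UMI (0.0029), summed UMIs (0.047) and without nuclei marked by Scrublet (0.087), where its difference was 0.031. Leaving out 1 mouse gave -0.24 to 0.11 for Gjb6 and -0.15 to 0.13 for Slc6a11 in astrocytes, -0.63 to 0.22 for Ntsr2 in dSPNs, and for Slc1a2 -0.32 to 0.28 in oligodendrocytes, -0.79 to 0.043 in dSPNs, -0.60 to 0.45 in iSPNs and -0.46 to 0.37 for the difference. Counts of called genes moved with a pseudocount of 5 UMIs (1 in astrocytes, 45 in oligodendrocytes, 41 for the difference from dSPNs), with all genes of at least 1 UMI (2 in oligodendrocytes, 2 in Sst interneurons, 14 for the difference), at 1100 UMIs (1 in astrocytes, 151 in dSPNs, 21 for the difference), with limma-voom (7 in astrocytes) and without nuclei marked by Scrublet (0 for the difference). Leaving out 1 mouse gave 0 to 8 in astrocytes, 1 to 133 in oligodendrocytes, 192 to 315 in dSPNs, 55 to 139 in iSPNs, 0 to 1 in Sst interneurons and 0 to 17 for the difference. Without TMM dSPNs gave 223 higher and 161 lower calls, against 123 and 223 with it, and iSPNs 43 and 74 against 31 and 100. The cause of these moves was not tested. Depth limits the members outside astrocytes, most of which did not pass the filter on low values.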
